A study of Rattus norvegicus with 2 samples.

Results

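A set of 10 genes known to be imprinted and to act on growth was examined in single cells of the rat cochlear duct, namely Peg3, Plagl1, Cdkn1c, Dlk1, Meg3, H19, Mest, Ndn, Nnat and Grb10. They were chosen by symbol, and 8 of the 10 carry a row among the 32623 genes of the count tables, each with 1 row. No row carries the symbol Meg3 or H19, so these non-coding RNAs are not analysed here. Of each gene it was asked how its level differed between postnatal day 1 (P1) and postnatal day 7 (P7), and whether a difference was shared by the cell types of the duct.

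The cells came from the cochlear duct of Sprague-Dawley rats. There was 1 droplet library at P1 and 1 at P7, pooled by the Methods from 40 rats per age of either or both sexes, after stria vascularis, spiral ligament and spiral ganglion had been separated by microdissection. The animals of both ages were untreated as far as the labels go, with no altered allele or agent named. With 1 library per age there is no replicate of a condition, so the ages were not tested against each other, and each interval below is exact, at the 95% level, and covers counting error only. The tables held 14068 barcodes and 114285848 unique molecular identifiers (UMIs, 1 per captured transcript) at P1, and 14501 barcodes and 101264868 UMIs at P7. Within the limits of the Methods, 12779 cells at P1 and 12581 at P7 were kept, with medians of 6565 and 6878 UMIs, and 53 barcodes occurred in both sets. Levels are UMIs of a gene per 1000000 UMIs of the cells named (CPM).

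Imprinted genes are expressed mainly or only from the copy inherited from 1 parent, a state set by DNA methylation in the germ line. Many of them are abundant in fetal and neonatal tissue, act on growth of the embryo and placenta, and are known to decline in many organs after birth. Plagl1, also called Zac1, encodes a zinc finger transcription factor known to act on other imprinted genes, and Peg3 encodes another zinc finger protein. Cdkn1c encodes p57, an inhibitor of cyclin-dependent kinases, and Grb10 encodes an adaptor that dampens insulin and IGF receptor signalling. Dlk1 encodes a Notch-ligand-like membrane protein of progenitor cells and pericytes, Mest a protein of the hydrolase fold, Ndn (necdin) a growth suppressor of the MAGE family, and Nnat (neuronatin) a small membrane protein.

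For 7 of the 10 genes a promoter was given by RefSeq on GRCr8, a build other than the rn6 used for the counts. None was matched for Cdkn1c, H19 and Nnat. The 250 bases before the start of the 3 genes that were at least 2-fold lower at P7 over all cells, and of Peg3, are shown from 5′ to 3′ on the strand of the gene, with CpG dinucleotides, the sites of DNA methylation, in capitals.
Plagl1, chr1:9297214-9297463, plus strand: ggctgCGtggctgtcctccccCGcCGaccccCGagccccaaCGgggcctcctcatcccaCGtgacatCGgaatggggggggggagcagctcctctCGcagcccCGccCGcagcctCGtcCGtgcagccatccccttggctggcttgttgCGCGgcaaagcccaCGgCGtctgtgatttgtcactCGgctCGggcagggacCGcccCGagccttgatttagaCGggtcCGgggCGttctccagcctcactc
Mest, chr4:60321564-60321813, plus strand: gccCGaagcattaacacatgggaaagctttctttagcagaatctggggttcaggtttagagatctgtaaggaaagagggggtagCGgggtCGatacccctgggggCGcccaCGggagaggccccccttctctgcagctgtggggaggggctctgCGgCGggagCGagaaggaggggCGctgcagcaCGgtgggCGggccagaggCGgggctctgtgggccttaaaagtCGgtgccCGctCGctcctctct
Dlk1, chr6:134192347-134192596, plus strand: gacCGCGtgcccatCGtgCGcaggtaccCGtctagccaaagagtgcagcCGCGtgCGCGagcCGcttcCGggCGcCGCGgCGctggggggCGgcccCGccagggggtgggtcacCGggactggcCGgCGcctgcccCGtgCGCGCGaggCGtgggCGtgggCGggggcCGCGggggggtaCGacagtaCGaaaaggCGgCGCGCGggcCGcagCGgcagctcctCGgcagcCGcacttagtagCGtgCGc
Peg3, chr1:76130744-76130993, plus strand: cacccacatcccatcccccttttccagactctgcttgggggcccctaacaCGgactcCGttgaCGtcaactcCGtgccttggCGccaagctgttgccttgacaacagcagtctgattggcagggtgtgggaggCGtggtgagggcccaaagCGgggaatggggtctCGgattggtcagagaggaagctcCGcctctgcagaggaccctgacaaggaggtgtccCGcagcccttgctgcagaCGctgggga
The windows held 23 CpGs in Plagl1, 15 in Mest, 41 in Dlk1 and 11 in Peg3, where the median of 33469 promoter windows of the same length was 5. As many CpGs as in Plagl1 were found in 12.3% of all windows, as in Mest in 25.8%, as in Dlk1 in 0.98% and as in Peg3 in 33.6%. The letters GGGGCCCC, which read alike on both strands and form part of the GC-rich site known for the Plagl1 protein, occurred in the Peg3 window, 213 bases before the start. They occurred in none of the other 6 windows of these genes and in 0.753% of all windows. A match of letters is a description and not a binding site.

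Cells were placed by fixed markers. A cell entered the glia, neuron, endothelial, pericyte and mural, macrophage or epithelial gate with a UMI of at least 3 of that list's markers and of fewer than 3 of each other list. A cell without 3 markers of any of these lists and with at least 3 mesenchymal markers entered the mesenchyme gate, which held 68.0% of kept cells at P1 and 55.3% at P7. Within it, 4 gates were named by their genes, Otor-Crym (3603 and 3216 cells at P1 and P7), Gpc3-Dcn (1111 and 1029), Aldh1a2-Scara3 (364 and 250) and Ccn3-Irx3-Scg3 (1769 and 579). The glia gate held 1895 and 3966 cells, the endothelial gate 287 and 350, the pericyte and mural gate 342 and 314, and the macrophage gate 146 and 172. These 8 gates share no cell and were compared between the ages. The neuron gate (299 and 30 cells) and the epithelial gate (107 and 45) fell under the minimum of 50 cells at P7 and were not compared.

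The labels call the cells greater epithelial ridge cells. The paper considers clusters marked by genes of the mesenchymal gates (Otor and Crym, Gpc3, Aldh1a2 and Scara3, Ccn3, Irx3 and Scg3) to be subtypes of them. By fluorescence in situ hybridization it reports Otor, Col6a1, Scara3 and Ccn3 transcripts in that ridge at P1. Only 0.837% of kept cells at P1 and 0.358% at P7 entered the epithelial gate. A list of 8 genes of the greater epithelial ridge and the tectorial membrane summed to 2256 and 4494 CPM in that gate and to 38.9 and 77.9 CPM in the mesenchyme gate. The 10 epithelial markers summed to 8.07 and 16.8 CPM in the mesenchyme gate, none of them at 0. Cells with 3 or more of these markers could not enter that gate, so the low sum follows in part from the rule. Cells that reached several lists (3.69% of kept cells at P7) had Oc90, Epcam and Epyc among their leading genes at P7. Those in no gate (2.23%) had Tectb and Tecta among theirs, beside haemoglobin genes. Most of the cells below are called by the genes of their gate and not by the label, and which name holds was not tested.

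Over all kept cells, Plagl1, Mest and Dlk1 were at least 2-fold lower at P7 and no gene of the 8 was at least 2-fold higher. Plagl1 stood at 30.6 CPM at P1 (3001 UMIs) and at 6.62 CPM at P7 (616 UMIs), a log2 ratio of -2.21 (-2.34 to -2.08). Dlk1 stood at 6.78 and 1.89 CPM, a log2 ratio of -1.84 (-2.09 to -1.60). Mest stood at 22.0 and 8.09 CPM, a log2 ratio of -1.44 (-1.56 to -1.32). These 3 of 8 genes compare with 12.4% of the 14860 genes that had at least 50 UMIs in both libraries together, and the 0 that were higher compare with 11.2%. The median log2 ratio of the 8 genes was -0.72 and that of all 14860 genes 0.046.

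The other members differed by less than 2-fold. Nnat was at 282 CPM at P1 and 159 at P7, and Grb10 at 69.6 and 45.4 CPM. Peg3 was at 184 and 135 CPM. Cdkn1c was higher at P7, with 386 and 506 CPM, a log2 ratio of 0.39 (0.37 to 0.41). Ndn was at 135 and 138 CPM, and the sign of its small log2 ratio of 0.035 turned when mitochondrial, ribosomal and haemoglobin genes were left out of the total (-0.048), when ratios were centred on the median gene (-0.011) and when every deposited barcode was used (-0.11).

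**Figure D1:**
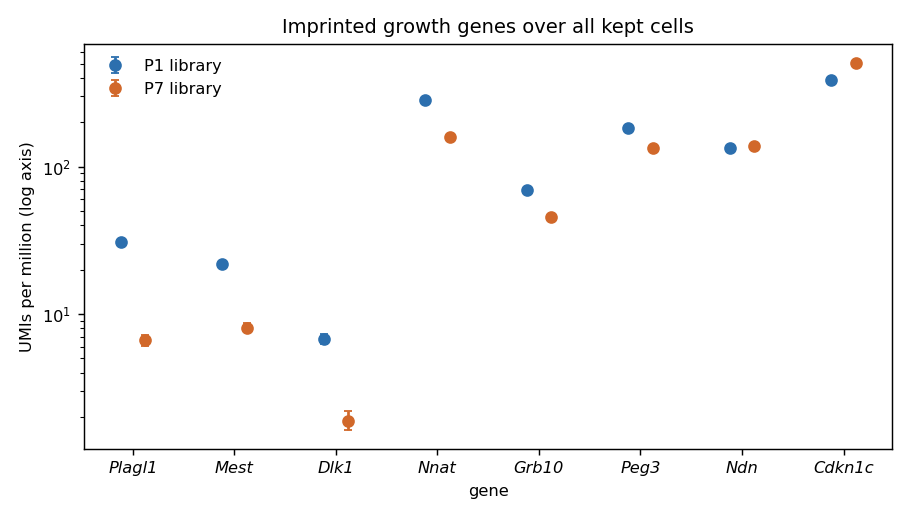
Level of each gene over all kept cells in the P1 (blue) and P7 (orange) library, in CPM on a log axis, with bars for the exact 95% counting interval, often narrower than the point. The P7 points of Plagl1, Mest and Dlk1 lie at 6.62, 8.09 and 1.89, below their P1 points at 30.6, 22.0 and 6.78. Points of different genes are not to be compared.

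The cell types made up different shares of the 2 libraries, so the P7 levels within each gate were also weighted by the share of UMIs that the gate had at P1. The log2 ratio was then -2.07 for Plagl1, -1.88 for Dlk1, -1.40 for Mest, -0.67 for Nnat, -0.42 for Grb10, -0.39 for Peg3, 0.045 for Ndn and 0.47 for Cdkn1c. Each kept its sign and the same 3 genes lay past 2-fold. Cells that reached several lists were weighted as a single class, which held 9.34% of UMIs at P1. Its leading genes included Snhg11, Ina and Stmn2 at P1, and Oc90, Epcam and Epyc at P7. Nnat in it was at 404 and 93.6 CPM. The weighting does not adjust for a change of content within a class.

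Plagl1 was at least 2-fold lower at P7 in 5 of the 6 gates that held enough UMIs. Among the compared gates its level was highest in the Gpc3-Dcn gate at P1. There 169 CPM at P1 (1326 UMIs) stood against 17.0 CPM at P7 (124 UMIs), a log2 ratio of -3.31 (-3.59 to -3.05). Lum, Edn3 and Dcn led this gate at both ages but are among its own markers. Other leading genes differed, with Igfbp6, Cldn1 and Ibsp at P1 and Lepr, Hpca and Aard at P7. Whether the gate held the same kinds of cell at both ages was not tested. This gate held 7.99% of all UMIs and 44.2% of the Plagl1 UMIs at P1, and 7.82% and 20.1% at P7. After thinning each cell to 2000 UMIs, 23.0% of 1091 Gpc3-Dcn cells at P1 and 3.08% of 974 at P7 held a Plagl1 UMI, and without thinning 43.0% and 9.72%. The median depth of the gate was 6735 and 6792 UMIs. Macrophages, with medians of 7008.5 and 7138 UMIs, were used as a mark for free RNA. No thinned macrophage of 138 at P1 and of 155 at P7 held one, which allows shares of up to 2.17% and 1.94%. The P7 share in the Gpc3-Dcn gate had an interval from 2.09% to 4.37%. The exact interval of P7 macrophages reaches 2.35%, so the 2 intervals overlap and these shares are not told apart.

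In the Otor-Crym gate Plagl1 was at 15.6 and 4.01 CPM, a log2 ratio of -1.96 (-2.30 to -1.63). Glia, which ensheath the axons of the cochlear nerve, gave 17.4 and 4.76 CPM, a log2 ratio of -1.87 (-2.20 to -1.55). Endothelial cells gave 31.6 and 10.4 CPM, a log2 ratio of -1.61 (-2.21 to -1.04). Pericytes and mural cells gave 27.4 and 4.11 CPM, from 58 and 9 UMIs, a log2 ratio of -2.74 (-3.94 to -1.72). The difference was thus present in mesenchyme, glia and both kinds of vessel cell.

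The Ccn3-Irx3-Scg3 gate stood apart, with 6.05 CPM at P1 (89 UMIs) and 4.81 at P7 (23 UMIs) and an interval that spans 0, from -1.06 to 0.34. When this gate was instead drawn on cells thinned to 2000 UMIs, which left 1022 and 303 cells, its log2 ratio was -2.90. The other 2 gates held too few UMIs, 10 together in the Aldh1a2-Scara3 gate and 2 in macrophages.

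Mest had its highest level among the compared gates in the Gpc3-Dcn gate, as Plagl1 did. It was at least 2-fold lower in 4 of the 5 gates with enough UMIs, with 57.1 CPM at P1 and 17.7 at P7 in that gate, a log2 ratio of -1.69 (-1.98 to -1.40). In the Otor-Crym gate it was at 21.0 and 7.04 CPM, in glia at 21.6 and 6.81 and in endothelial cells at 32.8 and 8.84, with log2 ratios of -1.57, -1.67 and -1.89. Once more the Ccn3-Irx3-Scg3 gate differed little, with 5.03 and 4.60 CPM (-0.89 to 0.58), and gave -2.58 when drawn on thinned cells. Pericytes and mural cells held 19 Mest UMIs at P1 and 4 at P7, too few to count.

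Across the 20 sums of the 10 gates in both libraries, Mest was the gene of 8856 most like Plagl1, with a Pearson r of 0.92 on log2(CPM + 5), and Plagl1 the gene most like Mest. The sums of a library share depth and free RNA, and both genes were lower at P7 in most gates, so r is a description. After Mest, Lman1 and Slc38a2 were most like Plagl1 (r of 0.84 and 0.83), and after Plagl1, Cbln2 and Slc38a2 were most like Mest (0.87 for both). Between single cells of 1 gate no difference was detectable at this depth. In the thinned P1 Gpc3-Dcn cells Mest was at 57.8 CPM in the 251 cells with a Plagl1 UMI and at 65.5 CPM in the 840 without, a log2 ratio of -0.18 (-0.82 to 0.42).

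**Figure D2:**
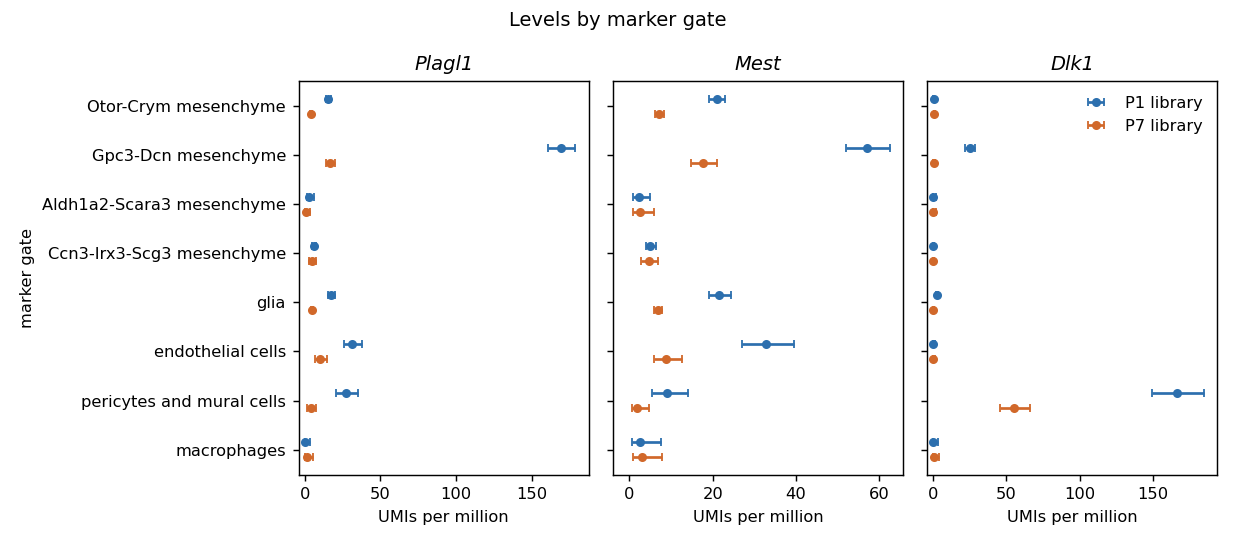
Levels of Plagl1, Mest and Dlk1 in the 8 compared gates, in CPM on a linear axis of its own for each gene, at P1 (blue) and P7 (orange), with exact 95% counting intervals. Plagl1 and Mest have their highest P1 level in the Gpc3-Dcn gate (169 and 57.1), and Dlk1 in pericytes and mural cells (166).

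Dlk1 was the gene with the narrowest range of cell types. Pericytes and mural cells, the contractile cells of small vessels, held 53.0% of its UMIs at P1 and 68.8% at P7, with 2.16% and 2.36% of all UMIs. Their level was 166 CPM at P1 (352 UMIs) and 55.2 CPM at P7 (121 UMIs), a log2 ratio of -1.59 (-1.90 to -1.29), which was -3.09 when 2 markers sufficed for a gate and -2.10 without dividing cells. After thinning, 14.9% of 335 such cells at P1 and 5.72% of 297 at P7 held a Dlk1 UMI.

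The second site of Dlk1 was the Gpc3-Dcn gate, with 25.02 CPM at P1 (196 UMIs) and 0.412 CPM at P7 (3 UMIs), a log2 ratio of -5.92 (-8.21 to -4.36). There, 2.84% of thinned cells held a Dlk1 UMI at P1 and 0.103% at P7. In thinned endothelial cells 0 of 272 and 0 of 324 did, which allows up to 1.10% and 0.926%, so that the P7 value of the Gpc3-Dcn gate is at background. No other gate reached 50 Dlk1 UMIs. Unthinned endothelial cells held no Dlk1 UMI at either age, which allows up to 0.894 CPM at P1 and 0.915 CPM at P7. Dlk1 was thus at least 2-fold lower in both gates where it could be read. The genes most like it over the gates were Notch3, which is a marker of the pericyte gate, Mrvi1 and Lrrc32, with r of 0.92, 0.92 and 0.91.

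Peg3 had ratios on both sides of 1 in different cell types. Its level was highest in the Gpc3-Dcn gate at both ages, with 412 and 246 CPM, a log2 ratio of -0.74 (-0.83 to -0.66). In glia it was at 208 CPM at P1 and 103 at P7, a log2 ratio of -1.01 (-1.09 to -0.93). In the Aldh1a2-Scara3 gate it was at 142 and 69.3 CPM, a log2 ratio of -1.03 (-1.33 to -0.74), and 14.1% of its thinned cells at P7 held a UMI (10.0% to 19.2%) against 11.6% of thinned macrophages, so the P7 level there is not read as above background. Both lay at the 2-fold line, and either side of it was reached in the alternatives (-1.18 to -0.80 in glia and -1.18 to -0.70 in the Aldh1a2-Scara3 gate).

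In the Otor-Crym gate, the one with the most cells at P1, Peg3 was at 157 and 150.2 CPM, and in the Ccn3-Irx3-Scg3 gate at 86.3 and 102 CPM, a log2 ratio of 0.25 that was -0.33 with the gate drawn on thinned cells. Endothelial cells gave 88.8 and 76.8 CPM and pericytes and mural cells 62.9 and 55.2, with intervals that span 0. The endothelial log2 ratio of -0.21 became 1.11 when the gate was drawn on thinned cells. Peg3 was thus at least 2-fold lower in 2 of 8 gates and higher in 1, the macrophages. The genes most like it over the gates were Tshz3, Slc4a4 and Plpp3, with r of 0.87, 0.86 and 0.84.

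Cdkn1c was higher at P7 in 5 of 8 gates, with intervals over 0 in all 5. The 5 include macrophages, the mark for free RNA, which stood at 74.4 and 270.3 CPM. The part of free RNA in the higher levels of the other gates was not tested. In the Otor-Crym gate it was at 523 and 797 CPM, a log2 ratio of 0.61 (0.58 to 0.64). In glia it was at 186 and 323 CPM, a log2 ratio of 0.80 (0.73 to 0.87), and 20.4% of thinned glia at P1 and 28.9% at P7 held a UMI, against 7.25% and 23.9% of thinned macrophages. In the Ccn3-Irx3-Scg3 gate it was at 306 and 432 CPM and in pericytes and mural cells at 335 and 395 CPM. In pericytes and mural cells the share of thinned cells with a UMI went the other way, 46.6% at P1 and 34.7% at P7, so no order is read there.

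The other gates did not share the higher level. The Gpc3-Dcn gate gave 589 and 503 CPM, a log2 ratio of -0.23 (-0.29 to -0.16), and the Aldh1a2-Scara3 gate 623 and 545 CPM, a log2 ratio of -0.19 (-0.30 to -0.080). Endothelial cells gave 463 and 441 CPM, where the alternatives ran from -0.89 to 0.48 on the log2 scale. Cdkn1c was at least 2-fold lower in no gate and at least 2-fold higher only in macrophages among the 8. The genes most like it over the gates were Foxp2, Fam92a and LOC100909750, with r of 0.91, 0.89 and 0.89.

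Since p57 is known to hold cells out of division, Cdkn1c was also compared between cells with a UMI of at least 3 of 8 genes of dividing cells and the others. At P1 the 1138 dividing cells were at 308 CPM and the 11641 others at 397 CPM, a log2 ratio of -0.37 (-0.42 to -0.32). At P7 the 1060 dividing cells were at 307 CPM and the 11521 others at 535 CPM, a log2 ratio of -0.80 (-0.85 to -0.75). Over all kinds of cell, the dividing ones were thus at like levels at both ages and the others were higher at P7.

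Within mesenchyme, dividing cells were at 421 CPM and others at 477 CPM at P1, and at 458 and 663 CPM at P7, so both were higher at P7. Within glia they were at 178 and 188 CPM at P1, with an interval of the log2 ratio from -0.23 to 0.070, and at 256 and 342 CPM at P7. Cdkn1b, which encodes the related inhibitor p27 and is not imprinted, had the other order in mesenchyme, with 170.2 CPM in dividing and 119 CPM in other cells at P1, and 138 and 73.5 CPM at P7. In P7 glia Cdkn1b had the order of Cdkn1c, with 139 and 169 CPM. Dividing cells had medians of 10238.5 and 10515.5 UMIs, against 6565 and 6878 over all kept cells, and the part of depth in these values was not tested.

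**Figure D3:**
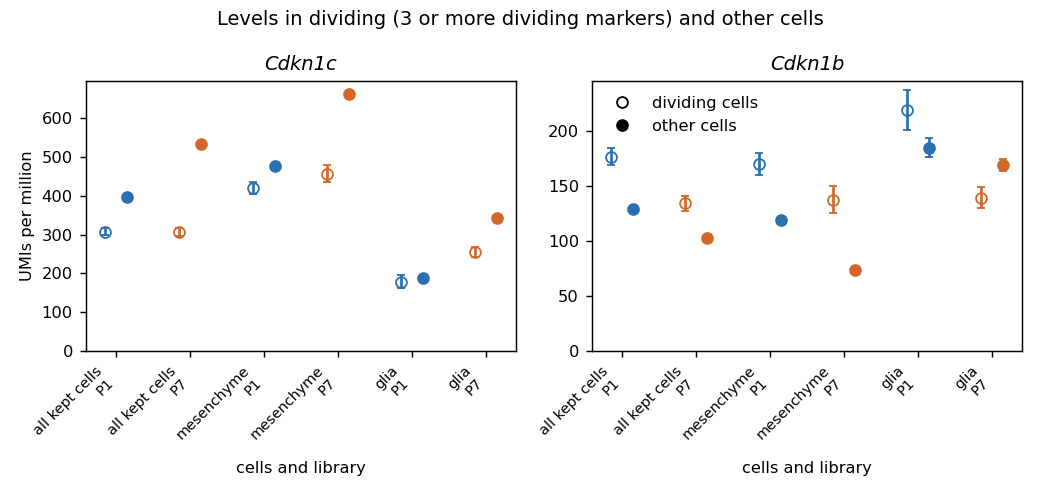
Level of Cdkn1c and of Cdkn1b in dividing cells (open points) and other cells (filled points), in CPM on a linear axis from 0 for each gene, at P1 (blue) and P7 (orange), with exact 95% counting intervals. Cdkn1c in other cells of all kinds lies at 397 at P1 and 535 at P7, and in dividing cells at 308 and 307.

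Ndn was detected in every compared gate. Outside macrophages the 7 compared gates lay between 70.6 and 135 CPM at P1 and between 90.9 and 154 CPM at P7. The log2 ratios of these gates ran from -0.045 in the Aldh1a2-Scara3 gate to 0.36 in endothelial cells. At P7 endothelial cells (90.9 CPM, 14.8% of thinned cells) were not above macrophages (84.5 CPM, 13.5%), whereas macrophages at P1 stood at 11.4 CPM and 2.90%. In the Otor-Crym gate Ndn was at 125 and 154 CPM, a log2 ratio of 0.30 (0.23 to 0.37). The genes most like it over the gates were Zfp428, Ercc8 and Akap11, with r of 0.93, 0.89 and 0.88.

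Nnat was lower at P7 in 6 of 8 gates, with intervals under 0 in all 6, and in none of them by 2-fold. The largest of these differences was in the Otor-Crym gate, with 401 CPM at P1 and 245 at P7, a log2 ratio of -0.71 (-0.75 to -0.66), and 46.7% of thinned cells at P1 and 30.5% at P7 held a UMI, against 9.42% and 9.68% of thinned macrophages. The Ccn3-Irx3-Scg3 gate gave 322 and 244 CPM and glia 103 and 77.7 CPM. In pericytes and mural cells it was higher, with 77.5 and 122 CPM, a log2 ratio of 0.65 (0.37 to 0.94), where the alternatives ranged from -0.18 to 0.88.

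Nnat lies within the span of Blcap, so reads of the 2 genes may not be fully told apart. Blcap was higher at P7, with 43.9 CPM at P1 and 68.8 at P7 over all kept cells. The genes most like Nnat over the gates were Dkk3, Neo1 and Rims2, with r of 0.85, 0.83 and 0.79.

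Grb10 was lower at P7 in 7 of 8 gates, with intervals under 0 in 5 of them. The Gpc3-Dcn gate came closest to 2-fold, with 128 CPM at P1 and 64.0 at P7, a log2 ratio of -0.99 (-1.16 to -0.83), and passed it under 4 of the alternatives. Glia had the lowest level at P7, with 30.8 and 18.4 CPM, a log2 ratio of -0.74 (-0.94 to -0.54) that was -0.24 when 2 markers sufficed. The Aldh1a2-Scara3 gate gave 124 and 87.2 CPM, and the Otor-Crym gate 54.1 and 52.3 CPM with an interval that spans 0. The genes most like Grb10 over the gates were LOC102550036, Lox, which encodes a collagen cross-linking enzyme, and Ebf1, with r of 0.87, 0.84 and 0.83.

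Macrophages were the exception to several of these patterns. Peg3 was at 23.6 CPM at P1 (27 UMIs) and 68.5 at P7 (90 UMIs), a log2 ratio of 1.54 (0.90 to 2.21). Ndn was at 11.4 and 84.5 CPM, a log2 ratio of 2.89 (2.06 to 3.85). Cdkn1c was at 74.4 and 270.3 CPM, a log2 ratio of 1.86 (1.52 to 2.22), and Grb10 at 15.8 and 38.1 CPM, a log2 ratio of 1.27 (0.47 to 2.14). Thus 4 of the 5 genes with enough UMIs were at least 2-fold higher and 0 lower, where 14.4% of all genes in that gate were higher and 4.97% lower.

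Marker genes of other cells also differed between the ages in this gate. The 10 mesenchymal markers, none of them at 0, summed to 1768 CPM in the macrophage gate at P1 and to 6209 CPM at P7. A list of 6 neutrophil genes summed to 11872 and 586 CPM there, with 2 of the 6 at 0 at P7. Their part in the higher levels was not tested. With the cells that held at least 2 neutrophil genes left out, 128 and 168 cells remained and the log2 ratios were 1.37 for Peg3, 2.98 for Ndn, 1.73 for Cdkn1c and 1.40 for Grb10. With the gate drawn on thinned cells they were 0.26 for Grb10, 1.03 for Cdkn1c, 1.36 for Ndn and 0.94 for Peg3.

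Macrophages were used as a mark for free RNA, and a P7 level is read as above background only where its interval lies over theirs. The mark can lie above the level of free RNA. Grb10 at P7 was at 18.4 CPM (16.9 to 20.1) in glia and at 38.1 CPM (28.3 to 50.2) in macrophages. A level that is not above the mark is therefore left undecided. Cdkn1c lay above the macrophage interval in each of the 7 other compared gates. This concerns its P7 level and not its difference between the ages. Plagl1 lay above it (1.52 CPM, 0.184 to 5.50) in the Gpc3-Dcn gate and endothelial cells, Mest (3.05 CPM, 0.830 to 7.80) in the Gpc3-Dcn gate, and Dlk1 in pericytes and mural cells. The P7 levels of Plagl1 and Mest in the other gates thus could not be told from background. Peg3 did not lie above the interval in the Aldh1a2-Scara3 gate, endothelial cells, or pericytes and mural cells, nor did Ndn in these same gates. Nnat did not in glia and the Aldh1a2-Scara3 gate, and Grb10 did not in the Otor-Crym gate, glia, or pericytes and mural cells.

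Read by cell type, the count of genes at least 2-fold lower at P7 was highest in the Gpc3-Dcn gate, with 3 of 8 (Plagl1, Mest, Dlk1), and in glia, with 3 of 7 (Plagl1, Mest, Peg3), where 8.5% and 9.18% of all genes of these gates were lower. It was 2 of 7 in the Otor-Crym gate (Plagl1, Mest) against 8.07% of all genes. In endothelial cells it was 2 of 7 (Plagl1, Mest) against 5.2%, and in pericytes and mural cells 2 of 7 (Plagl1, Dlk1) against 5.38%. The Aldh1a2-Scara3 gate gave 1 of 5 (Peg3) against 5.05%, and the Ccn3-Irx3-Scg3 gate 0 of 7 against 7.39%. The mesenchyme gate as a whole gave 3 of 8 against 9.28%. Outside macrophages no gene of the 8 was at least 2-fold higher in a gate. The median log2 ratio of all genes lay between 0.091 and 0.15 in these gates.

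**Figure D4:**
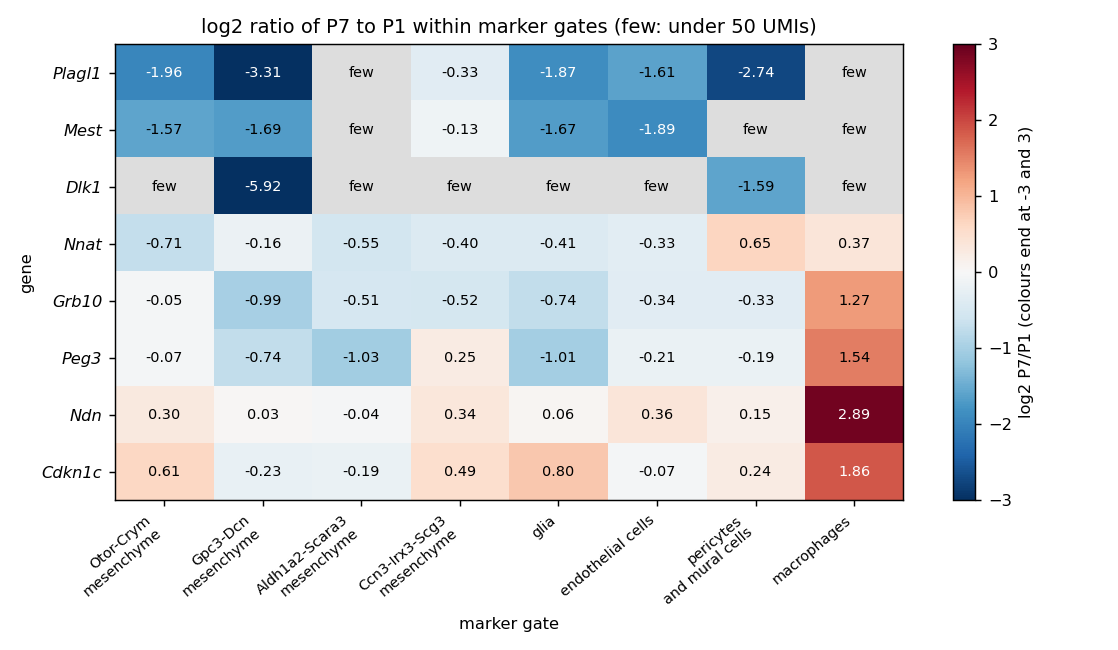
The log2 ratio of P7 to P1 for each gene (rows) in each compared marker gate (columns), blue for lower and red for higher at P7, with grey cells marked few where both libraries together held under 50 UMIs of the gene. The Plagl1 ratio is below 0 in all 6 gates shown, from -3.31 to -0.33, while the macrophage column is red for Grb10, Peg3, Ndn and Cdkn1c, from 1.27 to 2.89.

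At P1 the cells in which a Plagl1 UMI was found could be set beside their neighbours of the same gate at 2000 UMIs each. In the Gpc3-Dcn gate Dlk1 was at 61.8 CPM in cells with a Plagl1 UMI and at 22.0 CPM in those without, a log2 ratio of 1.49 (0.75 to 2.22). These levels rest on 31 and 37 UMIs, which lay in 31 cells. The interval does not cover the clumping of UMIs within cells. Grb10 was at 179 and 122 CPM, a log2 ratio of 0.56 (0.18 to 0.92), while Gpc3 itself was at 1042 and 998 CPM. Cdkn1c (705 and 555 CPM) and Peg3 (438 and 369 CPM) were also higher, while Ndn and Nnat were lower with intervals that span 0. In the Otor-Crym gate the 80 cells with a Plagl1 UMI had 500 CPM of Peg3 against 140.3 CPM in the other 3489, and 212.5 CPM of Grb10 against 56.7 CPM. They had less Nnat, 175 against 410.0 CPM, and more Gpc3, 300 against 158 CPM. Likewise the 59 glia with a Plagl1 UMI had more Gpc3 than the other 1805, 152.5 against 44.0 CPM. All cells of this comparison come from 1 library, and cells are not replicates.

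Other imprinted genes were split in direction. Of 43 listed, 38 had a row and 31 had at least 50 UMIs. Of these, 8 were at least 2-fold lower at P7 and 2 higher over all kept cells, with a median log2 ratio of -0.024, where 12.4% of all genes were lower and 11.2% higher. In mesenchyme 5 of 26 were lower and 4 higher, with a median of 0.22. Of all genes in mesenchyme 9.28% were lower, with a median of 0.107, and the share that was higher was not taken. Nap1l5, a nucleosome assembly protein gene, was at 30.6 and 4.24 CPM, a log2 ratio of -2.85 (-3.01 to -2.70), with -2.75 in mesenchyme and -1.21 in glia. Usp29, which is known to share a promoter with Peg3, was at 2.58 and 0.236 CPM, a log2 ratio of -3.45 (-4.15 to -2.82) over all kept cells. Within cell types Usp29 could not be read, since no gate reached the minimum of 50 UMIs. Its log2 ratio was -0.89 (-1.87 to 0.028) in mesenchyme from 34 and 15 UMIs and -0.95 (-2.75 to 0.89) in glia from 6 and 7 UMIs. Of the 253 Usp29 UMIs at P1, 38 lay in the neuron gate, which held 299 cells at P1 and 30 at P7. The UMIs outside mesenchyme, glia and neurons, the larger part, lay in cells that reached several lists or none. Zdbf2, Ppp1r9a and Zrsr1 were lower by log2 ratios of -1.29, -1.18 and -1.28.

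Igf2, the fetal growth factor that is expressed from the paternal copy, was higher at P7 over all kept cells, though not in each cell type. It was at 75.2 CPM at P1 and 171 CPM at P7 over all kept cells, a log2 ratio of 1.18 (1.14 to 1.22). In the Gpc3-Dcn gate, where Plagl1 was lower by -3.31, Igf2 was at 176 and 369 CPM. In the Ccn3-Irx3-Scg3 gate it was at 25.02 and 141 CPM, a log2 ratio of 2.50 (2.31 to 2.68), and in glia at 20.7 and 56.5 CPM. The Aldh1a2-Scara3 gate gave 24.9 and 19.5 CPM, a log2 ratio of -0.35 (-0.97 to 0.25), and pericytes and mural cells 62.9 and 74.4 CPM with an interval that spans 0. Macrophages stood at 14.9 and 95.9 CPM, so the P7 level in glia lies below theirs and is not read as above background. Igf2r, which encodes the receptor that clears IGF2, was at 27.9 and 37.2 CPM over all kept cells.

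Lists of partner genes were also read beside the members, against the 12.4% of all genes that were lower and the 11.2% that were higher over all kept cells. Of 4 inhibitors of cyclin-dependent kinases with enough UMIs, 0 were at least 2-fold lower and 2 higher, Cdkn2b and Cdkn2c, the latter with 13.0 CPM at P1 and 34.6 at P7. Of 6 genes of insulin and IGF receptor signalling, the pathway that Grb10 acts on, 1 was lower over all kept cells, the docking protein gene Irs1, with 5.55 and 2.59 CPM. In glia 3 of the 5 with enough UMIs were lower, Igf1r, Irs1 and Irs2, against 9.18% of all genes in glia. In mesenchyme 0 of 5 were lower, against 9.28% of all genes there, and 1 was higher, Grb14, with no share of all genes taken. Of 9 Notch receptors and ligands, the pathway in which Dlk1 is placed, 0 were lower and 4 higher, among them Jag1 with 18.9 and 45.2 CPM and Notch4 with 3.90 and 10.9 CPM. Jag1 was at 19.9 and 81.3 CPM in glia, but at 16.8 and 19.6 CPM in mesenchyme and at 33.3 and 31.8 CPM in the Ccn3-Irx3-Scg3 gate. Notch4 was at 3.06 and 15.01 CPM in glia and at 2.65 and 6.77 CPM in mesenchyme.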

How the data were processed

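For each library the authors deposited UMI counts per gene and cell barcode, without normalization. By the Methods and the matrix header, reads were aligned to rat rn6 and counted with Cell Ranger 3.1.0. The submitters' processing notes also name bcl2fastq and Seurat 3.1.1. No step against free RNA or doublets is stated, and whether counting used strand is not given in the sources used here.

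Following the Methods, a barcode was kept as a cell when over 500 but under 5000 genes were detected, when it held 500 UMIs or more, and when mitochondrial genes made up less than 25% of them. Doublets called by Scrublet (scanpy 1.11.5; 638 cells at P1 and 804 at P7) were kept and removed in an alternative. Counts were summed over cells and divided by their total, with exact Poisson intervals for levels and exact conditional binomial intervals for ratios at the 95% level, in Python 3.11.15 (scipy 1.17.1, numpy 2.4.6, pandas 2.3.3). A gene was called at 2-fold with at least 50 UMIs in both libraries together. Where no UMI was found, 3 counts were taken as the highest level allowed. Simulated libraries were drawn with counting error only, and 200 genes were changed in each case. These genes had at least 200 UMIs and were changed by more than 2-fold. All of them were found (100%). The intervals held the true ratio for 95.5% of them over all kept cells (11357 genes), 96.0% in mesenchyme (10027 genes), 94.5% in glia (5671 genes) and 92.5% in macrophages (762 genes). The share found for genes near 50 UMIs or changes near 2-fold was not tested.

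The 10 genes, marker lists and other gene lists were chosen with earlier results of these data known, and so support nothing by themselves. Named besides the members are genes of these lists past 2-fold that reached 200 UMIs in the library where they were higher, Igf2 and Igf2r, and the 3 genes most like each member. Cdkn2b, Cdkn1b, Gpc3, Blcap, Igf1r, Irs2 and Grb14 were named after their values were seen.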

Additional observations from a re-analysis of the deposited data

Results flagged for a closer look

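Peg3 went in opposite directions in cell types of the same 2 libraries. Its log2 ratio of P7 to P1 was 1.535 in macrophages, and -1.032 in the Aldh1a2-Scara3 gate and -1.01 in glia. The counting intervals of the macrophage value and of each of the other 2 do not overlap. With 1 library per age the difference between cell types was not tested. The P7 levels of macrophages and of the Aldh1a2-Scara3 gate, 68.5 and 69.3 CPM, overlap in their intervals. The macrophage values rest on 27 and 90 UMIs, and mesenchymal markers in that gate summed to 1768 CPM at P1 and 6209 CPM at P7.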

How the results depend on the processing

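No paired analysis was possible because each age has 1 library. Of 56 values over all kept cells under alternative settings, 29 moved by less than the counting interval and 27 by more, and no called value changed sign. With every deposited barcode the log2 ratios were -0.52 for Peg3, -2.05 for Plagl1, 0.43 for Cdkn1c, -0.11 for Ndn and -0.93 for Nnat. With a 10% mitochondrial limit they were -0.34 for Peg3, 0.44 for Cdkn1c, 0.18 for Ndn and -0.66 for Nnat. Without mitochondrial, ribosomal and haemoglobin genes in the total they were -0.54 for Peg3, 0.31 for Cdkn1c, -0.048 for Ndn, -0.91 for Nnat and -0.70 for Grb10. Centred on the median of all genes they were -0.50 for Peg3, 0.34 for Cdkn1c, -0.011 for Ndn and -0.88 for Nnat. As a mean over cells they were -2.40 for Plagl1, 0.25 for Cdkn1c, -2.29 for Dlk1 and 0.14 for Ndn. At the P1 composition they were -0.39 for Peg3, -2.07 for Plagl1, 0.47 for Cdkn1c, -0.67 for Nnat and -0.42 for Grb10. The cause was not tested.

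Within gates, 449 of 554 values moved by less than the interval and 105 by more, and no called value, one past 2-fold, changed sign. Some values short of 2-fold did. For example, Peg3 ranged from -0.33 to 0.33 in the Ccn3-Irx3-Scg3 gate and from -0.39 to 1.11 in endothelial cells. Nnat ranged from -0.18 to 0.88 in pericytes and mural cells. The number of gates with Peg3 at least 2-fold lower was 0 with 2 markers, and 1 with the 10% limit, without dividing cells, with gates on thinned cells and with cells of several lists placed by most markers. Nnat was higher in 1 gate with 2 markers. Grb10 was lower in 1 gate with 4 markers, without dividing cells, with the reduced total and when centred, and higher in 0 gates with 2 or 4 markers, the 10% limit, gates on thinned cells and most markers. At 1.5-fold 5 of the 8 genes were lower over all kept cells. The share of all genes at that fold was not taken, so this count is not read as a result. With no minimum of UMIs 19.7% of genes were at least 2-fold lower. The placing by most markers and the macrophage gate without neutrophil genes were chosen after seeing the data. Depth limits Dlk1 outside 2 gates, and Plagl1 and Mest in macrophages and the Aldh1a2-Scara3 gate.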

Other observations

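Neurons and epithelial cells were too few at P7 for the comparison, but their P1 levels place several genes. In the 299 P1 neurons Nnat was at 419 CPM (397 to 441), Ndn at 246 CPM (229.6 to 264) and Peg3 at 231 CPM (215 to 247), and Ndn and Nnat had their highest P1 level there, though Nnat overlapped in its interval with the Otor-Crym gate. Of these neurons 62.2% had no more than the minimum of 3 neuronal markers. When cells that reached several lists were placed by most markers, 581 and 76 neurons resulted, with Nnat at 515 CPM at P1 and 115 at P7, a log2 ratio of -2.16 (-2.51 to -1.84), and Cdkn1c at 181 and 284 CPM.

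In the 107 P1 epithelial cells Plagl1 was at 48.3 CPM (35.1 to 64.9), Mest at 47.2 CPM (34.2 to 63.6) and Nnat at 231 CPM (200.5 to 264). Placed by most markers, 183 and 97 epithelial cells gave Plagl1 at 63.3 and 40.9 CPM, a log2 ratio of -0.63 (-1.14 to -0.14), and Mest at 42.7 and 11.4 CPM, a log2 ratio of -1.90 (-2.83 to -1.07). This placing was chosen after seeing the data, and both gates were too small for the main comparison.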
